A study of Mus musculus with 10 samples.

Results

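The genes described here are the long noncoding RNA Tug1, the ribosomal RNA precursor row Rn45s and the long noncoding RNAs Malat1, Neat1, Meg3, Gas5 and Snhg1, read by their symbols from a table of read counts in sorted mouse platelets. All 7 symbols are rows of the table, out of 23420 rows in all. Tug1 was chosen because its level was high in 2 libraries, so its difference between the groups is given as a description with no test, and Rn45s was already known to differ in estimate between the groups. The other members were chosen by name. Tomato+ platelets and Tomato- platelets, with and without a red fluorescent reporter protein, were sorted from mouse peripheral blood, with 5 libraries in each group. What drives the reporter, and the strain and age of the mice, are not stated in the sample labels. The labels also do not tie each library to an animal of its own, so p-values measure the spread between libraries, which may be technical. The titles number Tomato+ libraries 1 to 5 and Tomato- libraries 6 to 10, and any effect of that order cannot be told apart from the group. In bulk samples, fewer cells of a type and less RNA per cell cannot be told apart either. Both groups share 1 protocol, in which RNA with a poly(A) tail was copied into cDNA and amplified by a Smart-seq+ method, so the counts carry no molecular identifiers and intervals cover counting error only.

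Platelets have no nucleus and carry RNA handed down by their parent cell, the megakaryocyte. Long noncoding RNAs are transcripts with no known protein product, and many of them act at the place where they are made, inside the nucleus. Malat1 is held in nuclear speckles, where splicing factors are stored, and Neat1 is the scaffold of the paraspeckle. Tug1 is found in both nucleus and cytoplasm, was first described in the mouse retina and has been reported to bind Polycomb complexes. Meg3 is an imprinted RNA of the Dlk1 locus. Gas5 and Snhg1 carry small nucleolar RNAs in their introns, and their spliced products are known as short-lived cytoplasmic RNAs, so the name nuclear-type does not cover them. Rn45s is not a long noncoding RNA but the precursor, made by RNA polymerase I, that is cut into structural RNAs of the ribosome.

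Of the 23420 rows, 4692 were detected somewhere and 264 in all 10 libraries. Total counts ranged from 5.41 to 16.2 M (M for 1000000), and detected genes, those with 1 count or more, from 807 to 2450. Replicates 1, 2 and 5 of Tomato- had fewer than 1000 detected genes. Levels are counts per 1000000 counts of the library (CPM). Transcripts of megakaryocytes were abundant throughout. The summed level of 10 platelet markers, all 10 of them with counts in every library, was 56193 to 72756 CPM in Tomato+ and 65441 to 70036 CPM in Tomato-.

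Because the protocol starts from the poly(A) tail, the annotated ends of the members are shown first. The last 60 bases of the longest transcript of each gene in GENCODE M21 (build GRCm38) are printed 5′ to 3′, with the poly(A) signals AATAAA or ATTAAA in capitals. For Neat1 the end of the shorter transcript is added.
Tug1 (chr11:3639785-3639844, minus strand): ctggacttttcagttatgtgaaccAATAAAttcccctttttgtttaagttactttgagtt
Gas5 (chr1:161038480-161038539, plus strand): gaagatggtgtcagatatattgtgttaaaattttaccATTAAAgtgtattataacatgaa
Malat1 (chr19:5795690-5795749, minus strand): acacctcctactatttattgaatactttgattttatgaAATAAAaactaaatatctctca
Neat1 long transcript (chr19:5824708-5824767, minus strand): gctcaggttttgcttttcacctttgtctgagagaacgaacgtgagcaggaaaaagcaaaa
Neat1 short transcript (chr19:5842307-5842366, minus strand): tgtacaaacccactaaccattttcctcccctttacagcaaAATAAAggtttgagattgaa
Meg3 (chr12:109571667-109571726, plus strand): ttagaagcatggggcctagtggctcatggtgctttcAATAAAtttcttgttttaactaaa
Snhg1 (chr19:8726383-8726442, plus strand): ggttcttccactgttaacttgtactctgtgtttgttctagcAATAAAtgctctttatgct

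Most of these ends held a poly(A) signal, as did 67.7% of all rows matched to GENCODE, and the choice of the genes did not use it. The signal was read on the transcript strand alone, and both spellings can share bases. Every transcript shown held one of them except the long Neat1 transcript. A signal at an annotated end does not show that the RNA ends there or carries a poly(A) tail, which was not tested. Among all 1390 long noncoding RNA rows matched to GENCODE, 50.5% held AATAAA in the same window, 17.6% held ATTAAA and 63.7% held either. Among 19292 protein-coding rows either signal was present in 71.1%. The longest uninterrupted run of A inside the transcript was 8 bases in Tug1, 12 in Malat1, 16 in Meg3, 5 in Gas5, 5 in Snhg1 and 7 in the long Neat1 transcript. Meg3, which had the longest run and 7 runs of at least 8 bases, had no counts in these libraries, as described further on.

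Tug1 (chromosome 11, 3639785 to 3649673, minus strand) was present in all 10 libraries, at a low and even level in most and at a high level in a pair of Tomato- libraries. Its level was 4.11, 3.94, 5.69, 3.46 and 2.18 CPM in Tomato+ replicates 1 to 5. In Tomato- replicates 1 to 5 it was 8.58, 6.38, 4.07, 154 and 1096 CPM. Replicates 4 and 5 of Tomato- stood apart, replicates 1 and 2 lay just above the highest Tomato+ library, and replicate 3 lay inside the Tomato+ range, so the groups overlapped. These levels rest on 25 to 56 counts in Tomato+ libraries and on 70, 51, 43, 1633 and 5930 counts in Tomato- replicates 1 to 5. The 95% Wilson intervals were 1068 to 1124 CPM for Tomato- replicate 5 and 147 to 162 CPM for Tomato- replicate 4, so counting error does not span the gap between them. The fitted log2 fold change, Tomato+ over Tomato-, was -5.70 (SE 2.47, n = 5 each). Without Tomato- replicate 5 it was -3.34, and without the 3 libraries with fewer than 1000 detected genes it was -4.33.

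No other gene with at least 10 counts in every library varied to this degree. For the 225 genes with at least 10 counts in every library, the highest library was divided by the median of the 10 libraries. For Tug1 this ratio was 224, for the next gene, Fam32a, it was 6.99, and the median over the 225 genes was 1.84. Rn45s, the other member in this set, had a ratio of 1.53. The median of Tug1, 4.90 CPM, was the lowest of the set, which raises its ratio. The set also leaves out genes that are missing from some libraries. Eif4a2, with counts in 6 libraries, had a ratio of 234. The ratio is a description of the values that led to the choice of Tug1, and Fam32a was named after its value was seen.

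**Figure D1:**
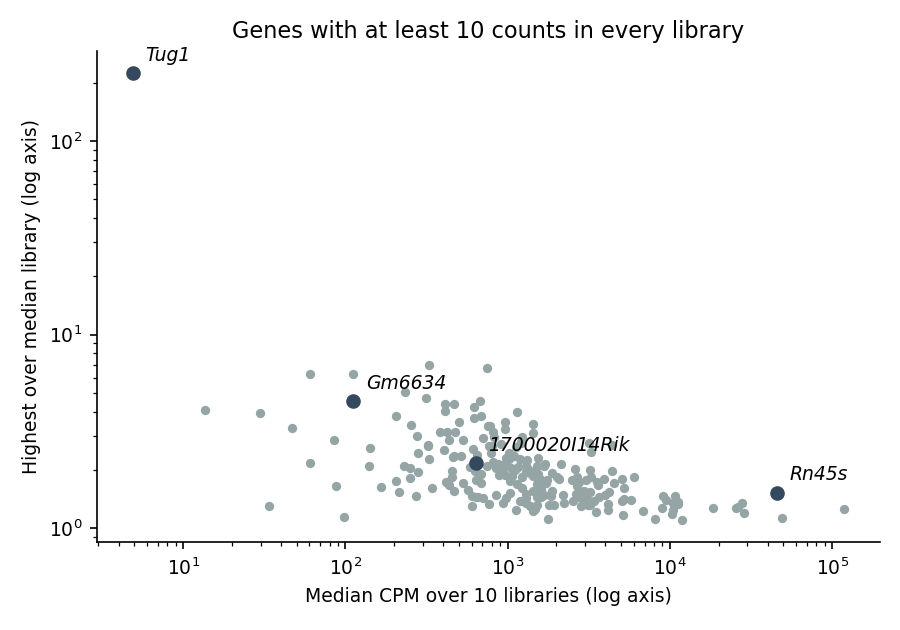
Each point is 1 of the 225 genes with at least 10 counts in every library, with its median CPM on the horizontal log axis and the highest library divided by the median on the vertical log axis. Tug1 lies alone at a ratio of 224, above Fam32a at 6.99 and far from Rn45s at 1.53.

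The 2 genes listed next to Tug1 had no counts where Tug1 was high. The chromatin ATPase gene Morc2a lies on the opposite strand, with its annotated start 482 bases from that of Tug1 and an overlap of 483 bases, and had 0 counts in all 10 libraries. The strand setting used in counting is not stated, so reads from overlapping genes could not be told apart by strand. Smtn, the next listed gene on chromosome 11 with a gap of 99.2 kb, encodes the smooth muscle protein smoothelin. It had 86.8 and 91.4 CPM in Tomato+ replicates 4 and 5, and 0 counts in the other Tomato+ libraries and in all Tomato- libraries.

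Rn45s was among the most counted rows of every library. It took 3.29, 6.33, 4.26, 6.96 and 6.75% of counts in Tomato+ replicates 1 to 5. In Tomato- replicates 1 to 5 it took 1.92, 3.10, 3.77, 4.86 and 5.37%. The groups overlapped, with Tomato+ replicates 1 and 3 inside the range of Tomato-. Among all rows it ranked 2 or 3 in Tomato+ libraries and 2 to 7 in Tomato- libraries, behind Tmsb4x, an actin-sequestering peptide gene that led in all 10. The log2 fold change was 0.76 (SE 0.29, n = 5 each), and Rn45s did not pass (edgeR adjusted p = 0.9996). Without the 3 libraries with fewer than 1000 detected genes, all of them Tomato-, it was 0.40. Ribosomal DNA is repeated many times in the genome, and how reads with several alignments were handled is not given, so the absolute level is uncertain.

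The share of Rn45s is set beside depth and gene detection here. The 3 highest shares, in Tomato+ replicates 4, 5 and 2, came from libraries of 16.2, 11.5 and 13.7 M counts. The 2 lowest, in Tomato- replicates 1 and 2, came from libraries of 8.16 and 7.99 M counts with 902 and 978 detected genes. Depth did not order all libraries, since Tomato- replicate 5, the shallowest at 5.41 M counts with 807 detected genes, had 5.37%, and Tomato+ replicate 1, at 11.7 M counts, had 3.29%. The part of depth in the difference between the groups was not tested.

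**Figure D2:**
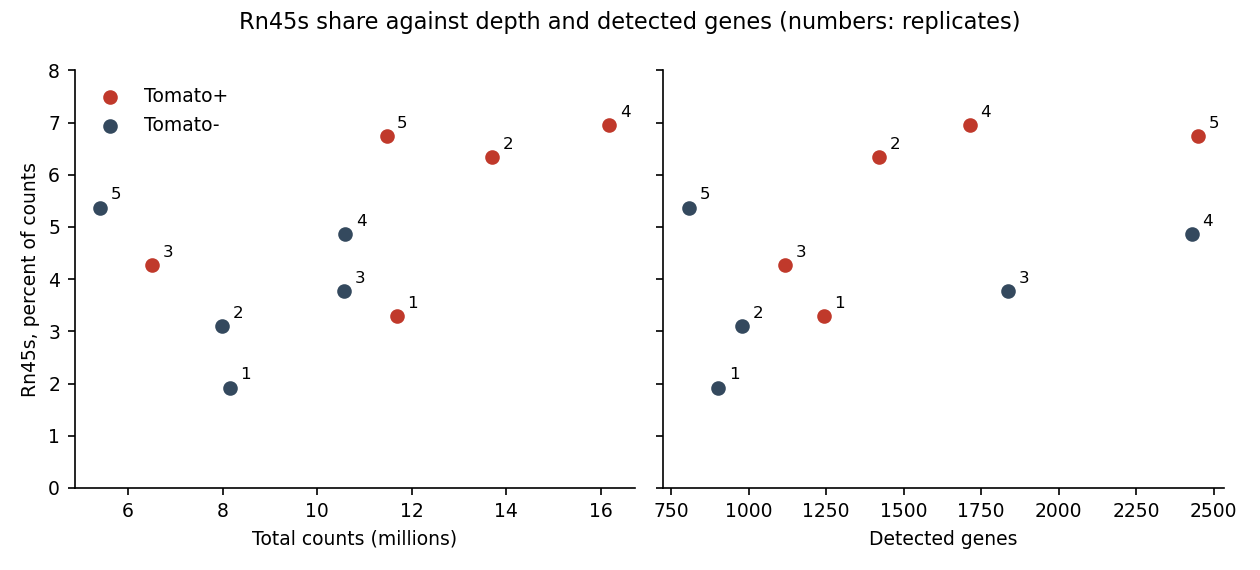
The share of counts taken by Rn45s, in percent, is plotted against total counts in M (left) and against detected genes (right), 1 point a library, with replicate numbers. The Tomato+ points at 6.33 to 6.96% lie above all Tomato- points, and the other 2 Tomato+ points, at 3.29 and 4.26%, lie among them.

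Gas5 (chromosome 1, 161034422 to 161038539, plus strand) was either well detected or nearly missing in a library. Its level was 0, 31.4, 0.307, 0.0618 and 132 CPM in Tomato+ replicates 1 to 5. In Tomato- replicates 1 to 5 it was 306, 0.125, 126, 156 and 219 CPM. Most Tomato- libraries were thus high and most Tomato+ libraries low, but the groups overlapped, since replicate 5 of Tomato+ reached the Tomato- values and replicate 2 of Tomato- had 1 count. Low values meant 0, 2 or 1 counts in Tomato+ replicates 1, 3 and 4, whereas libraries that had the RNA held from 430 to 2494 counts. The log2 fold change was -1.998 with an SE of 2.49, and Gas5 did not pass (edgeR adjusted p = 0.9996, n = 5 each). Without Tomato+ replicate 5 it was -4.05. Such gaps were common in these data: of 2847 genes that reached 400 counts in some library, 2611 (91.7%) had at most 2 counts in another.

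Snhg1 (chromosome 19, 8723475 to 8726443, plus strand), which like Gas5 hosts small nucleolar RNAs, had 0 counts in all 10 libraries. A count of 0 allows up to 0.185 to 0.554 CPM by library, taking 3 counts as the limit, and given the gaps just described these limits cover counting error alone. Host genes of this kind often start with a run of C and T. The first 50 transcribed bases are shown for both, from RefSeq (GRCm38.p6), with the unbroken run of C and T from the first base in capitals; for Gas5 the second of the 2 annotated starts is shown.
Gas5 (chr1:161035166-161035215, plus strand): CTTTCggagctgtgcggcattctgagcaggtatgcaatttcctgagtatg
Snhg1 (chr19:8723487-8723536, plus strand): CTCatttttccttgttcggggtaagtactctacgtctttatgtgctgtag
The run was 5 bases in Gas5 and 3 in Snhg1, and 4.44% of 32851 annotated starts had a run of at least 5 bases. At the other annotated Gas5 start the run was 0 bases. The share of starts with a run of at least 3 bases, as in Snhg1, was not computed. The long noncoding RNA 1700020I14Rik, described further on and not listed here as a host gene, also had a run of 5 bases. The run was 0 bases in Tug1, 1 in Malat1 and 0 at the annotated starts of Meg3. In these starts the run thus did not set host genes apart.

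Like most rows of the table, the neighbours Zbtb37 and Slc3a2 had counts in 1 library at most. Zbtb37, which overlaps Gas5 by 428 bases on the opposite strand, had 0 counts in all libraries. Slc3a2, the heavy chain of amino acid transporters, starts 106 bases from Snhg1 on the opposite strand and had counts in Tomato- replicate 4 alone (96.4 CPM).

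Malat1 and Neat1, the nuclear RNAs that are abundant in most nucleated cells, were missing from most libraries. Malat1 (chromosome 19, 5795690 to 5802672, minus strand) had 0 CPM in Tomato+ replicates 1, 3, 4 and 5 and 0.876 CPM, 12 counts, in replicate 2. In Tomato- it had 37.2 CPM, 394 counts, in replicate 4, 0.125 CPM, 1 count, in replicate 2 and 0 in replicates 1, 3 and 5. Neat1 (chromosome 19, 5824708 to 5845478, minus strand) had 12.8 and 28.8 CPM, 175 and 330 counts, in Tomato+ replicates 2 and 5, and 0 counts in the other Tomato+ libraries and in all Tomato- libraries. The 2 genes lie on the same strand with a gap of 22.0 kb, and Tomato+ replicate 2 was the only library with counts of both. Neither had enough counts to be tested. Meg3 (chromosome 12, 109541001 to 109571726, plus strand) had 0 counts in all 10 libraries, with the same limits as Snhg1, and its imprinted neighbours Dlk1 and Rtl1 were also at 0 throughout.

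Frmd8, the protein-coding gene next to Neat1 with a gap of 4.22 kb, was seen more often than Neat1 itself. It had 373, 681 and 234 CPM in Tomato+ replicates 2, 3 and 5 and 1 count in replicate 4. In Tomato- it had 185 and 224 CPM in replicates 3 and 4 and none in the others. Its log2 fold change was 1.66 with an SE of 2.76 and did not pass (edgeR adjusted p = 0.9996, n = 5 each). Of the 13 listed neighbours of the members, 8 were at 0 in all libraries, 1 was tested and 0 passed. Among all 20410 protein-coding rows, 21.8% had a count in any library.

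**Figure D3:**
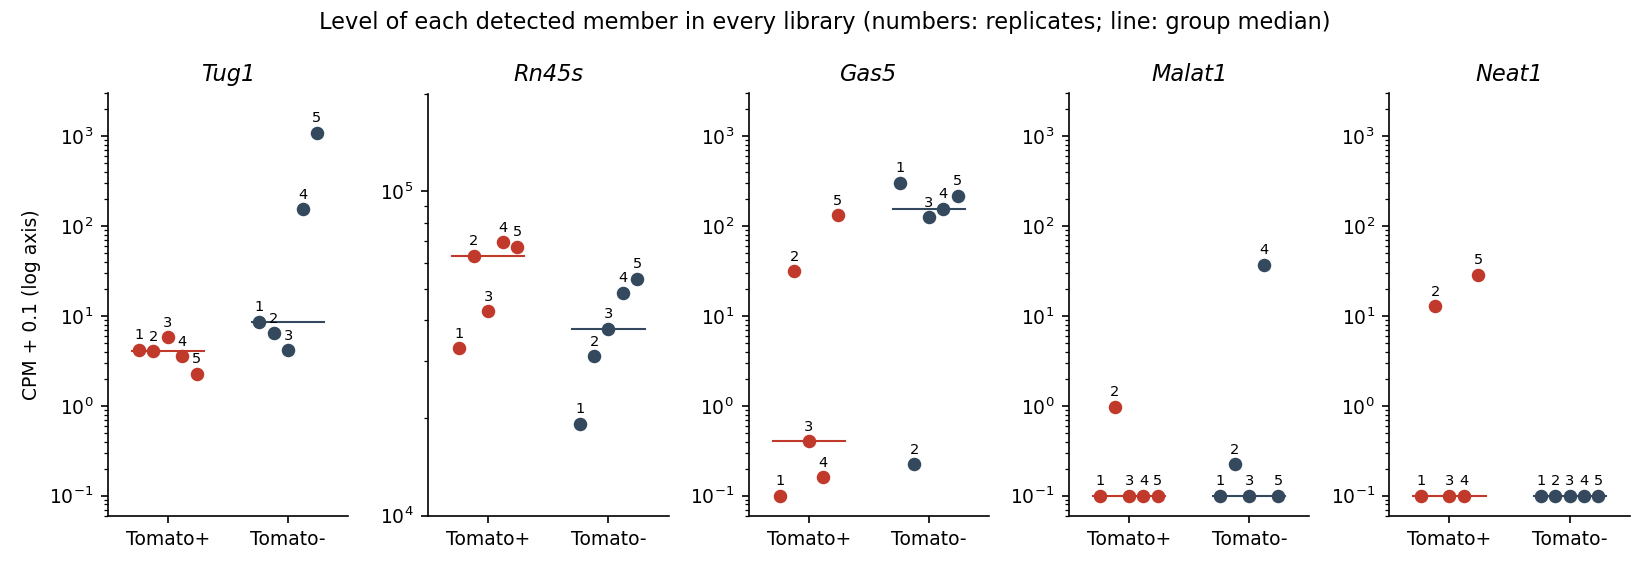
The level of each detected member is shown as CPM plus 0.1 on a log axis, 1 point a library with its replicate number, Tomato+ left of Tomato-, and a line at the group median; the Rn45s panel has its own axis range. Tug1 stands at 154 and 1096 CPM in Tomato- replicates 4 and 5 and between 2.18 and 8.58 CPM elsewhere, Gas5 falls into present and nearly missing libraries, and Malat1 and Neat1 lie at 0 in most.

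Between Tomato+ and Tomato- platelets, 3 of the 7 members had enough counts for the fit. Of these, Rn45s and Gas5 did not pass, and for Tug1, chosen on these values, the outcome of a test is not read as a result. Over all 1016 genes tested with edgeR, the share called at an adjusted p under 0.05 was 0% higher and 0% lower in Tomato+. The unadjusted edgeR p was under 0.05 for 8 genes with higher and 1 with lower estimates, DESeq2 called 1 gene on the same table, which was Tug1. Limma voom called 1 gene, no member, without the replicate block, and 2 genes, among them Rn45s, with it. Groups that did not overlap, with every Tomato+ library above every Tomato- library, were found for 0.492% of the tested genes, and the opposite for 0.0984%. Rn45s and Gas5 were not among these. The median log2 fold change of all tested genes was 0.21, with 58.3% of genes estimated higher in Tomato+.

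Per length, the order of the members depended on the library. In each gene's highest library, the level per kb of annotated exon was 113 CPM per kb for Tug1, 81.3 for Gas5, 5.32 for Malat1 and 1.38 for Neat1. Taking the median of the 10 libraries in place of the highest, Gas5 had 20.9 CPM per kb and Tug1 0.503, while Malat1, Neat1, Meg3 and Snhg1 were at 0. Rn45s has no length in the annotation used and is not placed in this order.

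Long noncoding RNAs as a class were sparse in these platelets. RefSeq annotates 1708 rows of the table as long noncoding RNA, and 163 of them (9.54%) had a count in any library, against 21.8% of 20410 protein-coding rows. Just 3 of them had counts in every library: Tug1, 1700020I14Rik and Gm6634. That is 0.176% of long noncoding rows, against 1.26% of protein-coding rows. The number detected per library was 29, 34 and 67 in Tomato+ (lowest, median and highest) and 15, 24 and 63 in Tomato-. Their summed level was 2058, 2897 and 4069 CPM in Tomato+ and 1327, 2689 and 3358 CPM in Tomato-, so the groups overlapped in both measures. Tug1 supplied 32.6% of this sum in Tomato- replicate 5, where it ranked first of the class, 5.31% in Tomato- replicate 4 and at most 0.481% in every other library. Of 16 long noncoding RNAs tested, the estimate was above 0 for 11 and below 0 for 5 (Tomato+ over Tomato-, median log2 fold change 0.51, against 0.21 for all genes), and 0 passed.

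Of the 3 seen in every library, 1700020I14Rik had the highest median level; it is listed in RefSeq as Oip5os1 and also called Cyrano, an RNA known in the mouse for triggering the decay of a microRNA. It had 257, 927, 1379, 539 and 727 CPM in Tomato+ replicates 1 to 5. In Tomato- replicates 1 to 5 it had 548, 764, 785, 488 and 31.2 CPM. Tomato- replicate 5, the library with the highest Tug1, had the lowest value, and the groups otherwise overlapped (log2 fold change 0.77, SE 0.98, edgeR adjusted p = 0.9996, n = 5 each). In Tomato- replicate 5 alone, Tug1 exceeded it. Per length the median of 1700020I14Rik over the libraries was 76.7 CPM per kb, above the medians of Gas5 and Tug1.

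**Figure D4:**
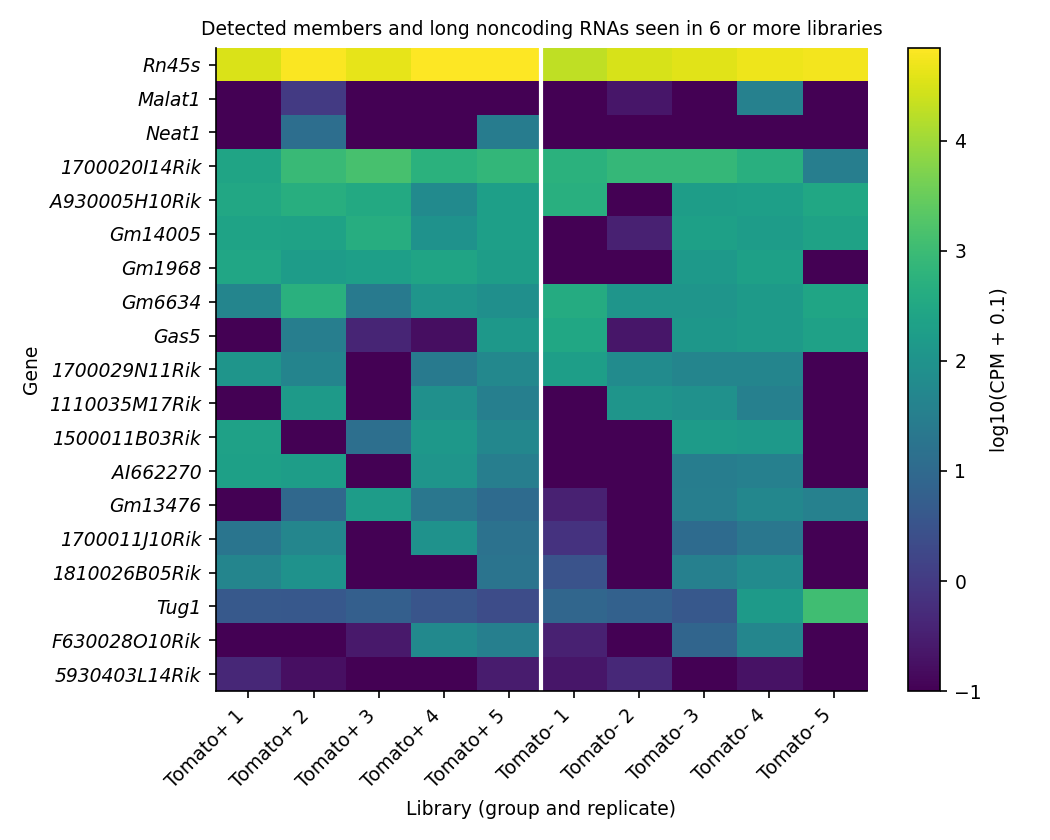
Each row is a detected member or 1 of the 16 long noncoding RNAs with counts in at least 6 libraries, each column a library, Tomato+ left of the white line, and the colour is log10 of CPM plus 0.1. The row of Tug1 is dim in all columns but Tomato- replicates 4 and 5, while 1700020I14Rik is bright in all columns but Tomato- replicate 5.

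Of 39 further long noncoding RNAs in a list of known genes, 21 were rows of the table under the listed symbol, 7 had any count, 2 were tested and 0 passed. 2900097C17Rik, whose GENCODE position on chromosome 2 is that of Norad, a sponge of Pumilio proteins, had 63.3 and 36.3 CPM in Tomato+ replicates 4 and 5 and no counts in the other Tomato+ libraries. In Tomato- it had 191, 12.3 and 23.3 CPM in replicates 2, 3 and 4 and none in replicates 1 and 5. Its log2 fold change was -0.68 (SE 2.70, edgeR adjusted p = 0.9996, n = 5 each). Dleu2, the host of a microRNA cluster, had 185 CPM in Tomato+ replicate 1 and 5.57 CPM in Tomato- replicate 4 and none elsewhere. Gm14005, which RefSeq lists as Morrbid, a regulator of the lifespan of short-lived myeloid cells in the mouse, was seen in 5 Tomato+ and 4 Tomato- libraries. Its level was 94.7 to 429 CPM in Tomato+, and in Tomato- it was 0 in replicate 1, 0.25 CPM in replicate 2 and 172 to 228 CPM in the others. It was named, with Gm6634, for its presence across libraries after its values were seen.

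Most other host genes of small nucleolar RNAs were at 0, like Snhg1. So were most rows of the table, with 4692 of 23420 detected in any library. Of 22 listed host genes, 14 were rows of the table, and 11 of these had 0 counts in all libraries. Those with counts included Eif4a2, which encodes a translation initiation factor, and Rpl13a, which encodes a ribosomal protein. Eif4a2, the 1 tested, had 1.23 and 17.3 CPM in Tomato+ replicates 3 and 5 and 0 in the others. In Tomato- it had 44.99, 187, 92.3 and 0.37 CPM in replicates 1, 3, 4 and 5 and 0 in replicate 2. Eif4a2 did not pass (log2 fold change -4.01, SE 2.92, edgeR adjusted p = 0.9996, n = 5 each).

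Proteins that work with these RNAs were irregular in the same way. Of 15 listed paraspeckle and speckle proteins, 10 had a count in some library, and their summed level was 0, 342 and 1525 CPM in Tomato+ (lowest, median and highest) and 1.10, 164 and 352 CPM in Tomato-. The splicing factor Srsf2, the 1 tested, had 143 to 503 CPM in Tomato+ replicates 2 to 5 and 0 in replicate 1. In Tomato- it had 1.10, 95.8 and 160 CPM in replicates 1, 3 and 4 and 0 in the others (log2 fold change 2.16, SE 2.55, edgeR adjusted p = 0.9996, n = 5 each). Srsf6, another splicing factor, had 663, 146 and 48.7 CPM in Tomato+ replicates 3, 4 and 5 and 8.30 CPM in Tomato- replicate 4, with 0 elsewhere. None of these genes was present in every library of a group. Of 8 genes of Polycomb repressive complex 2 and its partners, 5 had a count, among them Jarid2, a targeting subunit, with 143 CPM in Tomato+ replicate 5 and 138 CPM in Tomato- replicate 2 as its highest values. Rbbp4, a histone-binding subunit, had 189 CPM in Tomato+ replicate 4 alone, and Ezh2, the catalytic subunit, had 89.4 CPM in Tomato+ replicate 2 and 39.1 CPM in Tomato- replicate 3 as its highest values. Among all protein-coding rows, 21.8% had a count in any library. Of 20 genes for the synthesis and processing of ribosomal RNA, 17 were at 0 in every library. The 3 with counts were Npm1, a nucleolar chaperone, at 42.5 CPM in Tomato- replicate 4 alone, Polr1d, a polymerase subunit, at 4.97 CPM in Tomato+ replicate 5 alone, and Polr1b with 1 count in each of 2 libraries.

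Markers of nucleated blood cells were checked because Malat1, Neat1 and Tug1 are RNAs of nucleated cells. Tomato- replicate 4, with 154 CPM of Tug1 and the highest Malat1, was the one library with counts of the pan-leukocyte gene Ptprc (1.23 CPM), the antigen presentation gene Cd74 (74.9 CPM), the lymphocyte granule gene Nkg7 (20.7 CPM), the monocyte gene Ms4a6c (45.2 CPM) and the haem synthesis gene Alas2 (183 CPM). It also had the highest level of the haemoglobin row Beta-s (3257 CPM). Tomato- replicate 5, with 1096 CPM of Tug1, had 0 counts of all B cell, T and NK cell and neutrophil markers listed and of Ptprc. The same was true of Tomato+ replicates 1 and 2 and Tomato- replicates 1, 2 and 3, and Tomato- replicate 5 had the fewest detected genes, 807. In Tomato- replicate 5 the white cell gene Laptm5 stood at 1680 CPM and summed red cell markers at 269 CPM. Summed monocyte markers were at 9029 CPM there, the highest of all libraries. All of that sum came from Lyz2, which was at 5881 CPM or more in every library.

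Summed over each list, B cell markers, of which 2 of 6 rows had counts, were at 0 to 115 CPM in Tomato+ and at 0 to 74.9 CPM in Tomato-. T and NK cell markers, with counts of 1 of 5 rows, were at 0 in Tomato+ and at 0 to 20.7 CPM in Tomato-, and Cd3e was at 0. Neutrophil markers, with counts of 1 of 5 rows, stood at 0 to 240 CPM in Tomato+ and were at 0 in Tomato-. Red cell markers, with counts of 3 of 6 rows, had 1.38 to 338 CPM in Tomato+ and 47.7 to 3440 CPM in Tomato-. Monocyte markers were high in all libraries through Lyz2, at 6256 to 8692 CPM in Tomato+ and 5881 to 9029 CPM in Tomato-, and Csf1r was at 0. General white cell markers, with counts of 2 of 3 rows and nearly all of them from Laptm5, had 393 to 1970 CPM in Tomato+ and 1041 to 1997 CPM in Tomato-. Endothelial markers, with counts of 4 of 6 rows, had 464 to 1501 CPM in Tomato+ and 130 to 1725 CPM in Tomato-, highest in Tomato- replicate 5, mostly through Pecam1, which platelets also carry. The part of any of these cells in the levels of Tug1, Malat1, Neat1 or Gas5 was not tested.

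From the other 224 genes with at least 10 counts in every library, predicted gene models such as Gm6634 were left out. The genes most like Tug1 across libraries were sought among the rest, by Spearman rho of CPM over the 10 libraries, as a description. They were Tpi1, a glycolytic enzyme gene (rho 0.83), Srxn1 and Prdx6, genes of the peroxiredoxin system (0.81 each), the chloride-proton exchanger gene Clcn3 (0.77) and the cyclooxygenase gene Ptgs1 (0.75). Over the 8 libraries without Tomato- replicates 4 and 5, which lie farthest from the Tug1 median, rho was 0.74 for Tpi1, 0.74 for Srxn1, 0.83 for Prdx6, 0.62 for Clcn3 and 0.64 for Ptgs1. Tpi1 had 298 to 476 CPM in Tomato+ and 559, 643, 372, 545 and 1243 CPM in Tomato- replicates 1 to 5, and none of the 5 shared the size of the Tug1 range. These libraries share their depth and detection with every gene, and the best of many values of rho is high by selection.

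For Rn45s the same search gave Mylk, the myosin light chain kinase gene (rho 0.83), Lars2, the mitochondrial leucyl-tRNA synthetase gene (0.71), the Fc receptor chain gene Fcer1g (0.70), C330006A16Rik (0.66) and the talin gene Tln1 (0.66). Without Tomato+ replicate 4 and Tomato- replicate 1, the libraries farthest from the Rn45s median, rho was 0.76, 0.64, 0.71, 0.45 and 0.57 for these genes in the same order. Lars2 had 350, 633, 725, 549 and 658 CPM in Tomato+ replicates 1 to 5. In Tomato- replicates 1 to 5 it had 266, 248, 398, 309 and 468 CPM. The groups overlapped, with replicate 1 of Tomato+ below the highest Tomato- values, and Lars2 did not pass (log2 fold change 1.02, SE 1.14, edgeR adjusted p = 0.9996, n = 5 each).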

How the data were processed

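Platelet libraries were compared between 5 Tomato+ and 5 Tomato- samples. The values deposited by the authors are unnormalized read counts, 1 table for all libraries. Per the submitters' processing notes, the tools were STAR, featureCounts, Trimmomatic and FastQC and the build mm10. Tool versions, the annotation, the strand setting and the treatment of multi-mapping reads: not given in the sources used here. CPM used the sum of all rows. Genes were tested with edgeR 4.0.16 (R 4.3.3; quasi-likelihood F test, robust, TMM, default filter with minimum count 10 and minimum total 15, group as the sole term) and Benjamini-Hochberg adjustment over 1016 genes at 0.05. Each SE is the absolute fold change (log2) over the root of F. Alternatives used DESeq2 1.42.0, limma 3.58.1, other scalings, other filters, the replicate number as a block and libraries left out. The fit was tested on simulated data. All 45 pairs of libraries differed beyond counting noise (chi-square over its degrees of freedom at least 509.5).

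Gene positions are from GENCODE M21 (GRCm38, the assembly that mm10 names), which held 6 of the 7 members; 5 had start sequences in RefSeq. Biotypes are from RefSeq GRCm38.p6, where 23260 rows matched a symbol or an unambiguous synonym. Rn45s was in neither. The members and lists were chosen with earlier results of these data known. The text names every member, most of the 3 detected genes with the highest mean CPM in each list, and the 5 genes most like Tug1 and Rn45s.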

Additional observations from a re-analysis of the deposited data

Results flagged for a closer look

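In a group of 5 libraries, a library was picked out when its gap to the nearest other value exceeded 0.71 of the range of the group. This screen covered 9 combinations of member and group with unequal values. For normally distributed values chance picks out about 1 in 20, but levels at or near 0 in many libraries do not follow that distribution. The rate therefore does not hold here, and a member with counts in 1 library of a group is always picked out. Tug1 was picked out in Tomato- for replicate 5 at 1096 CPM; Tug1 was chosen for this level, so the chance rate does not apply to it. Malat1 was picked out in Tomato+ for replicate 2 at 0.876 CPM and in Tomato- for replicate 4 at 37.2 CPM, with the other libraries at 0 or 1 count. Gas5 was picked out in Tomato+ for replicate 5 at 132 CPM.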

How the results depend on the processing

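Counts of genes called were 0 in each direction in all 10 cases with 1 library left out and in every other setting except 3. DESeq2 called 1 gene lower in Tomato+, which was Tug1, with a log2 fold change of -5.98. Tug1 was chosen on these same values, so this call is not read as a result. Limma voom without the replicate block called 1 gene higher, which was no member. Limma voom with the replicate block called 2 genes higher, among them Rn45s at 0.18 (adjusted p = 1.98e-06); its SE of 0.0066 is far below the spread between libraries. With 1 library left out, the log2 fold change of Rn45s ran from 0.58 to 0.90, that of Gas5 from -4.05 to -1.66 and that of Tug1 from -6.09 to -3.34, and no sign turned in any setting. The edgeR fit with the replicate block gave -7.87 for Gas5 and -2.24 for Tug1. Scaling to total counts gave 0.54 for Rn45s and moved the median of all genes from 0.21 to -0.03. The cause of these shifts was not tested. The labels do not say that the replicate numbers pair the samples, so the numbers were not taken to do so. Deviations of same-numbered libraries correlated between -0.11 and 0.12. These values cannot settle the pairing, since gaps between libraries were common in all genes. Meg3 and Snhg1 had no counts and Malat1 and Neat1 had counts in too few libraries to pass the default edgeR filter.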

Other observations

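Small structured noncoding RNAs, which mostly lack a poly(A) tail, were also looked up by name. Of 18 listed, 9 were rows of the table, and only the vault RNA gene Vaultrc5 among those 9 had counts, at 0.769 CPM in Tomato+ replicate 3. For comparison, 4692 of all 23420 rows had a count in any library, so with 9 rows this list is not set apart from the table. The part of the poly(A) tail in these counts was not tested. Genes around the tumour suppressor p53 were seen in few libraries. Ccng1, a cyclin gene that p53 activates, had 513 and 349 CPM in Tomato+ replicates 1 and 2 and 138 CPM in Tomato- replicate 4, with 0 elsewhere. Mdm2, the ubiquitin ligase gene for p53, had 59.1 CPM in Tomato+ replicate 5, and in Tomato- 291 CPM in replicate 1 and 0.25 CPM in replicate 2.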
